A study of Mus musculus with 32 samples.

Results

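A set of 7 nuclear receptor genes is described here: Nr5a2, Esrrb, Rara, Rarb, Rarg, Rxra and Rxrb, which are 7 of the 55385 genes listed in each RNA-seq file. They were chosen by name, and were matched by gene identifier to the GENCODE M21 annotation. All 7 had enough counts to be tested in every comparison. The data come from mouse embryos made by in vitro fertilization of wild-type B6D2F1/J oocytes with B6D2F1/J sperm from mice 6 to 8 weeks old, and cultured in KSOM medium. A-485, which inhibits the acetyltransferases CBP and p300, was given at 10 µM, or DMSO in its place, between 4 and 20 hours post in vitro fertilization (hpi), and total RNA was sequenced from zygotes, at early 2-cell and then at late 2-cell. It was also sequenced from late 2-cell embryos cultured with 50 nM trichostatin A (TSA), an inhibitor of histone deacetylases, or with DMSO, between 8 and 28 hpi. Each of the 8 groups had 2 libraries, and both late 2-cell experiments had DMSO libraries of their own. ATAC-seq, which marks open chromatin, was done with A-485 or DMSO at the late 1-cell stage and at early 2-cell, and 1 peak list per stage and treatment was deposited.

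Nuclear receptors are transcription factors that bind DNA through a pair of zinc fingers and contact coactivators, among them CBP and p300, or corepressors through a domain that in many of them holds a small ligand. NR5A2 and ESRRB are orphan receptors that can bind DNA as monomers at a half-site extended by a few bases on one side. The retinoic acid receptors (RARA, RARB and RARG) pair with the retinoid X receptors (RXRA and RXRB) and bind direct repeats of the half-site. Zygotic genome activation (ZGA) in the mouse begins weakly in the zygote and reaches its major wave at the late 2-cell stage.

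The depth of the 16 RNA libraries was 13206163 to 32585987 expected counts, the estimated counts that RSEM gives, and both A-485-treated late 2-cell libraries were the shallowest. In those libraries mitochondrially encoded genes took 19.5% and 20.7% of the counts, against 12.3% and 10.5% in their DMSO libraries. The 10 oocyte markers summed to 703 and 687 FPKM (fragments per kilobase, scaled to library size) there, against 340 and 394 in DMSO, although only 1 of the 10 (Bmp15) was called as higher. The 9 markers of the 2-cell stage summed to 103 and 91.6 FPKM there, against 404 and 377 in DMSO, and 8 of 9 were called as lower. The 10 cumulus cell markers summed to 6.00 and 4.85 FPKM there, against 7.85 and 12.5 in DMSO, with 5 of 10 listed at 0 in both DMSO libraries and 2 of 10 with A-485. Of these, 1 was called as lower (Amhr2, 8.81 to 0.345 FPKM) and 2 as higher (Foxl2, 0.045 to 1.55, and Has2, 0.18 to 1.08), and the median log2 fold change of the 8 tested was 3.68. How far this different makeup of the RNA enters the results at the late 2-cell stage was not tested. Since whole embryos were sequenced, fewer cells with a transcript and less of it per cell cannot be told apart.

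In DMSO-treated embryos Nr5a2 was the most abundant per length in every group, at 42.2 and 47.1 FPKM in the 2 zygote libraries. Early 2-cell libraries had 38.9 and 29.4 FPKM and late 2-cell libraries 73.6 and 78.6. It dipped little and then rose: the log2 fold change from early to late 2-cell was 1.20 ± 0.145 (SE; adjusted p = 3.63e-05, quasi-likelihood test of edgeR), and both late 2-cell libraries lay above all earlier ones. For a comparison of 2 groups a gene was called when its adjusted p was under 0.05, its fold change at least 2 and its mean FPKM at least 1 in either group. For a difference between effects (an interaction) it was called on the adjusted p alone. Esrrb went down and came back. The zygote libraries had 13.5 and 10.0 FPKM, the early 2-cell libraries 2.46 and 4.85, and the late 2-cell libraries 9.01 and 8.17. This was a fall by 1.3 ± 0.216 followed by a rise of 1.99 ± 0.227 on the log2 scale (adjusted p = 0.000221 and 2.12e-05, edgeR).

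Rarg was close to absent in zygotes and rose at both steps. Its 2 DMSO zygote libraries had 26 and 23 expected counts (0.34 and 1.0 FPKM), the early 2-cell libraries 232 and 235 (4.79 and 5.36 FPKM), and the late 2-cell libraries 975 and 822 (15.9 and 17.1 FPKM). The groups did not overlap at either step, and the log2 fold changes were 3.79 ± 0.318 and 1.98 ± 0.185 (adjusted p = 4.37e-07 and 4.03e-06, edgeR). Rara and Rxra, in contrast, were present at every stage without a called change in DMSO embryos: Rara lay between 4.79 and 9.02 FPKM over the 8 DMSO libraries, and Rxra between 3.28 and 6.36 FPKM. Rxra dipped by less than 2-fold, with log2 changes of −0.78 ± 0.176 to early 2-cell and 0.62 ± 0.211 to late 2-cell (adjusted p = 0.00254 and 0.0379, edgeR). The adjusted p of the second step was 0.0601 with DESeq2. Rarb was low, at 1.38 to 2.40 FPKM in DMSO zygotes and 1.47 to 1.70 at early 2-cell, and fell to 0.13 and 0.23 FPKM (9 and 13 counts) at late 2-cell, a log2 change of −2.40 ± 0.663 (adjusted p = 0.0133, edgeR). That call was lost without early 2-cell DMSO replicate 1 (adjusted p = 0.185) or late 2-cell DMSO replicate 1 (adjusted p = 0.0538). Rxrb had 11 to 57 counts in each DMSO library, and no call was made for it in any comparison. Mitochondrially encoded genes took 4.34% to 5.00% of the counts in zygotes and 10.5% to 11.4% at early 2-cell. With scaling to these genes, which moved the median log2 fold change of all genes from 0.08 to −1.18 at this step, Nr5a2 (−1.64), Rarb (−1.68) and Rxra (−2.05) were also called as lower from zygote to early 2-cell, and Rara turned from 0.29 to −0.98.

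From zygote to early 2-cell in DMSO, then, 1 of the 7 genes rose and 1 fell, where 11.2% of all genes tested rose and 14.9% fell. From early to late 2-cell 3 rose and 1 fell, against 15.9% and 8.92% of all genes.

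**Figure D1:**
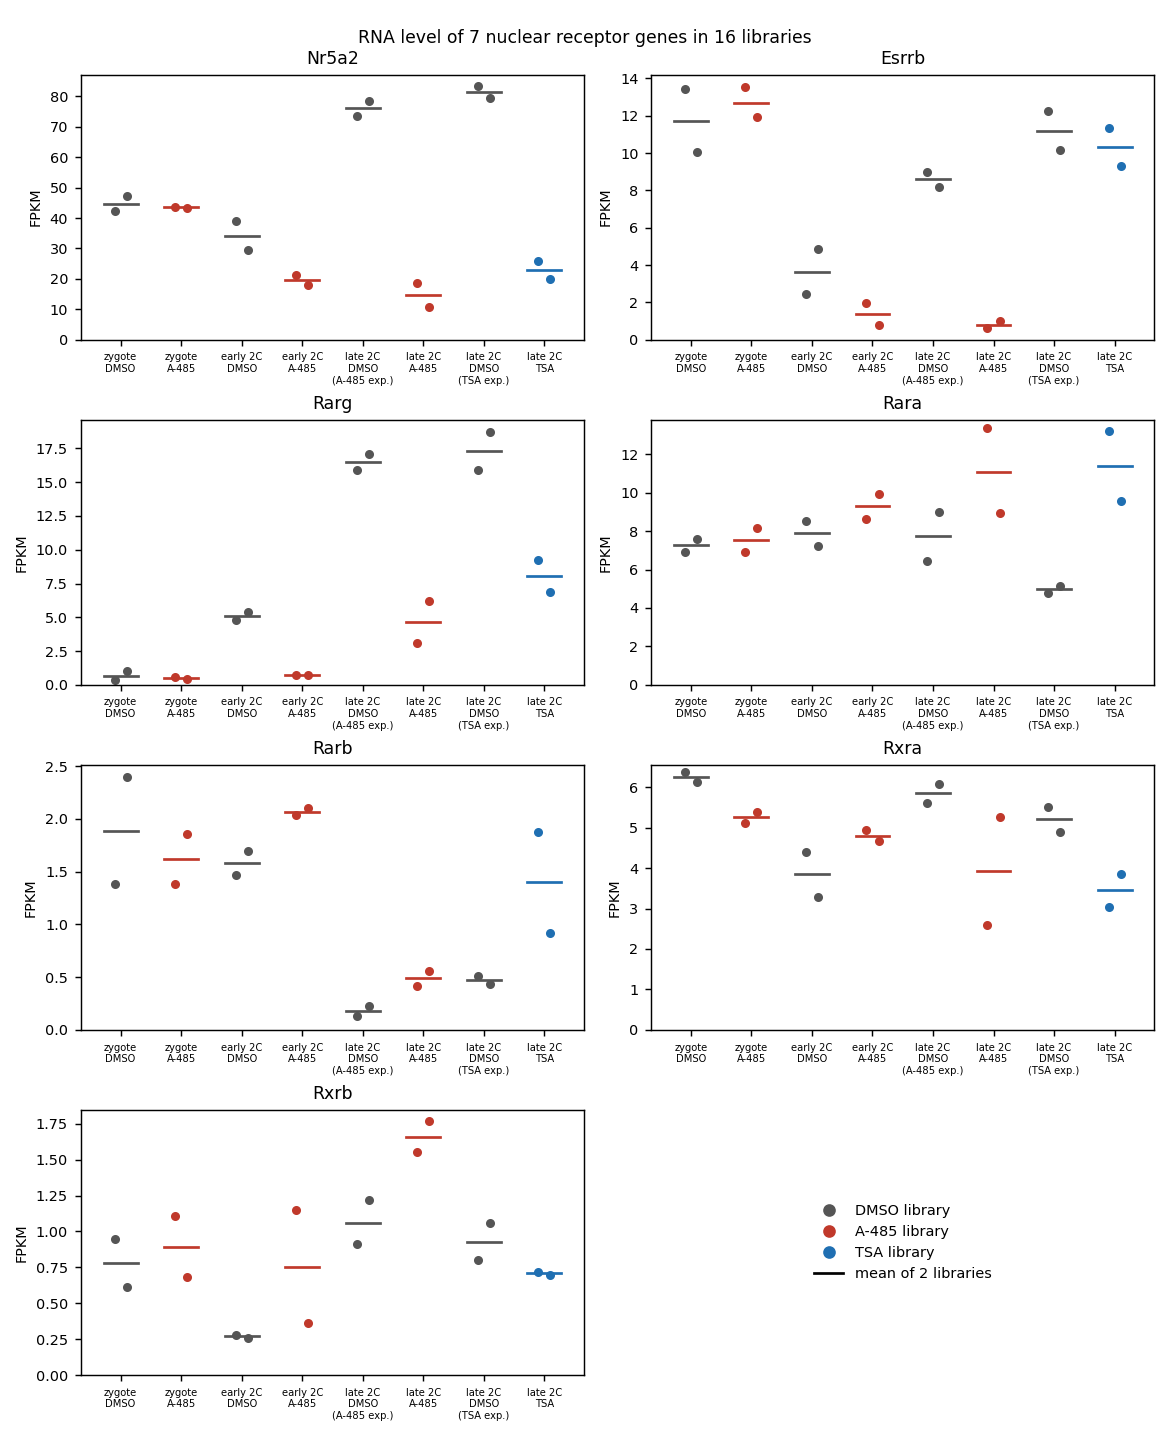
FPKM of each gene (vertical axis, linear, starting at 0) in the 2 libraries of each of the 8 groups; points are libraries and lines the means of 2 libraries. The DMSO libraries of Nr5a2, Rarg and Esrrb rise from early to late 2-cell, while the A-485-treated late 2-cell libraries of these genes stay at or below 18.6, 6.19 and 0.98 FPKM.

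No change of the 7 genes with A-485 was detectable in zygotes. Nr5a2 had 43.5 and 43.4 FPKM with A-485 and Esrrb 13.6 and 11.9, within or next to the range of the DMSO libraries. No member was called by edgeR or by DESeq2, and 0 of 7 had an unadjusted p under 0.05. Calls were rare at this stage, since 0.0657% of all genes tested were called as lower and 0.00548% as higher. Rxra was the one gene whose zygote groups were apart in FPKM, at 5.12 and 5.38 with A-485 against 6.36 and 6.12 in DMSO, with a log2 fold change of −0.18 ± 0.128 (adjusted p = 0.954, edgeR).

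At early 2-cell, before major ZGA, Rarg and Esrrb were lower with A-485. Rarg had 0.76 and 0.73 FPKM (43 and 44 counts) against 4.79 and 5.36 in DMSO. In FPKM the A-485-treated libraries lay within the range of the DMSO zygote libraries (0.34 and 1.0). By counts they lay above it, since those zygote libraries had 26 and 23 counts from larger totals (30123666 and 29076477, against 22393323 and 23864414). The log2 fold change against DMSO at early 2-cell was −2.49 ± 0.293 (adjusted p = 8.21e-05, edgeR), and it lay between −2.58 and −2.43 under all 12 alternatives tried. Esrrb had 1.96 and 0.81 FPKM against 2.46 and 4.85. These groups did not overlap but came close, and the log2 fold change of −1.42 ± 0.312 (adjusted p = 0.00961, edgeR) was no longer called without early 2-cell DMSO replicate 2 (−1.17, adjusted p = 0.0746). Nr5a2 was lower in both A-485-treated libraries, with 21.2 and 18.1 FPKM against 38.9 and 29.4, but by less than 2-fold (log2 −0.53 ± 0.144, adjusted p = 0.032, edgeR). That value was −0.32 (adjusted p = 0.217) without early 2-cell DMSO replicate 1 and −0.40 (adjusted p = 0.122) without early 2-cell A-485 replicate 2. Rara, Rarb, Rxra and Rxrb had log2 fold changes between 0.08 and 0.60, none called. The 2 genes called as lower are to be read against 7.90% of all genes called as lower, and none of the 7 was called as higher, against 0.402% of all genes. The 9 markers of the 2-cell stage summed to 34.3 and 31.4 FPKM with A-485 at this stage, against 838 and 774 in DMSO.

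The A-485 effect itself differed between early 2-cell and zygote for Rarg (interaction, log2 −3.11 ± 0.541, adjusted p = 0.000692, edgeR) and Esrrb (−1.30 ± 0.316, adjusted p = 0.0145), as it did by adjusted p alone for 5.66% of all genes tested. For Esrrb that difference was lost when any 1 of 5 of the 8 libraries was left out, with adjusted p between 0.0537 and 0.117 in those fits: either zygote DMSO replicate, zygote A-485 replicate 1, early 2-cell DMSO replicate 2 or early 2-cell A-485 replicate 1.

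At late 2-cell, the stage of major ZGA and after A-485 had been washed out, Nr5a2, Rarg and Esrrb were all lower. Nr5a2 had 18.6 and 10.8 FPKM against 73.6 and 78.6 in DMSO. It thus did not rise after early 2-cell, and the log2 fold change was −2.52 ± 0.171 (adjusted p = 2.69e-07, edgeR). Esrrb was nearly lost, with 0.63 and 0.98 FPKM (33 and 52 counts) against 9.01 and 8.17, the largest change of the 7 (−3.61 ± 0.297, adjusted p = 1.38e-06, edgeR). Rarg had 70 and 88 counts against 975 and 822, a log2 fold change of −3.11 ± 0.238 (adjusted p = 7.50e-07, edgeR). In FPKM the same libraries had 3.13 and 6.19 against 15.9 and 17.1, a smaller ratio (log2 −1.82). The effective length of Rarg, an average over transcripts that enters FPKM and not counts, was 1692 and 953 bases in the A-485-treated libraries and 2658 and 2502 in DMSO. The 3 genes were called as lower in all 12 alternatives each, with log2 fold changes between −3.14 and −2.30 (Nr5a2), −3.75 and −2.92 (Rarg), and −4.24 and −3.38 (Esrrb).

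The remaining receptors moved less at late 2-cell. Rxra had 2.59 and 5.25 FPKM with A-485 against 5.61 and 6.08, below 2-fold (log2 −0.75 ± 0.267, adjusted p = 0.0447, edgeR; up to 0.171 under the alternatives), but it was called when the scaling rested on mitochondrially encoded genes (−1.39, adjusted p = 0.0015) or when late 2-cell A-485 replicate 2 was left out (−1.01, adjusted p = 0.00694). Rara had 13.4 and 8.93 FPKM against 6.46 and 9.02, and its groups overlapped. Its log2 fold change of 0.35 ± 0.251 (adjusted p = 0.286, edgeR) turned to −0.29 with the mitochondrial scaling. Rarb had 16 and 24 counts against 9 and 13. Rxrb had 10 and 17 counts against 24 and 51, and neither gene was called. Over all genes the median log2 fold change was 0.28, and it was 0.47 with library totals and −0.35 with the mitochondrial scaling. Of the 7 genes, 3 were called as lower and 0 as higher, where 16.8% and 10.5% of all genes tested were.

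Compared with early 2-cell, the A-485 effect at late 2-cell was deeper for Nr5a2 (interaction, log2 −1.91 ± 0.221, adjusted p = 3.86e-07, edgeR) and Esrrb (−2.11 ± 0.437, adjusted p = 0.000795), and both were kept in all 15 alternatives. For Rarg the difference was −0.54 ± 0.372 (adjusted p = 0.363, edgeR), which the test did not call, but it was −1.17 (adjusted p = 0.0415) with the mitochondrial scaling. Of all genes tested, 20.0% differed in this way. Within A-485-treated embryos, Nr5a2 went from 21.2 and 18.1 to 18.6 and 10.8 FPKM and Esrrb from 1.96 and 0.81 to 0.63 and 0.98. Neither was called, Nr5a2 with a log2 fold change of −0.87 ± 0.172 (adjusted p = 0.000441, edgeR) that passed 2-fold with the mitochondrial scaling (−1.40) or without late 2-cell A-485 replicate 1 (−1.08). Rarg went from 43 and 44 to 70 and 88 counts, called as higher (log2 1.28 ± 0.485, adjusted p = 0.048, edgeR) but in only 3 of 12 alternatives, and Rarb was called as lower (−1.82 ± 0.56, adjusted p = 0.0157, edgeR), a call lost without early 2-cell A-485 replicate 2 (adjusted p = 0.109). Among all genes, 12.8% rose and 7.15% fell over this step in A-485-treated embryos.

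**Figure D2:**
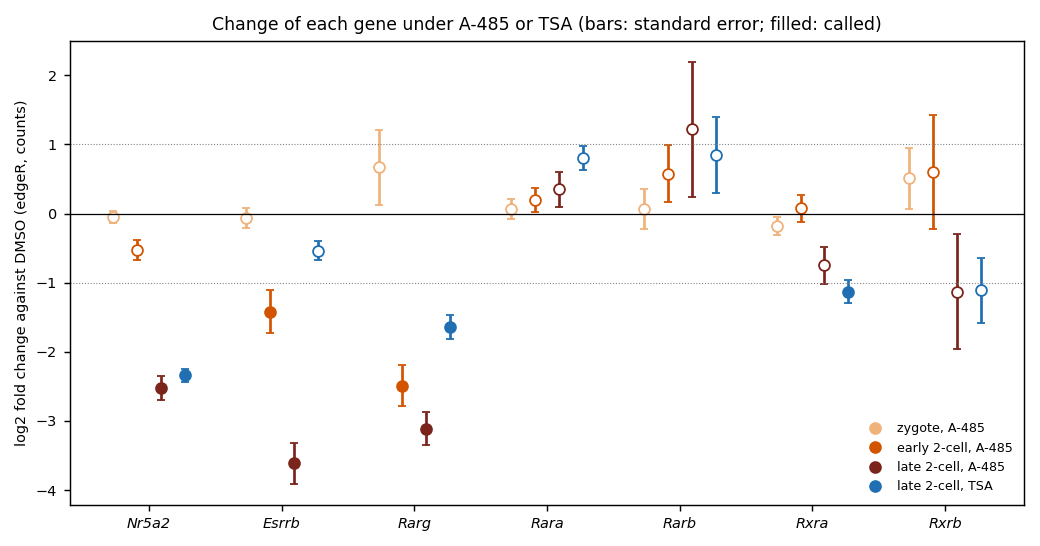
log2 fold change against DMSO from expected counts (vertical axis) for each gene and each of 4 comparisons, with the standard error of the edgeR fit of 2 against 2 libraries; filled points were called, open points were not, and dotted lines mark a fold change of 2. Nr5a2, Esrrb and Rarg lie at −2.52, −3.61 and −3.11 with A-485 at late 2-cell, and Esrrb lies at −0.54 with TSA.

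TSA, which acts on the opposite side of acetylation, was also followed by lower Nr5a2 and Rarg, while Esrrb was not called. Nr5a2 had 25.8 and 19.9 FPKM with TSA against 83.6 and 79.3 in the DMSO libraries of that experiment (log2 −2.34 ± 0.0981, adjusted p = 2.41e-08, edgeR). Rarg had 385 and 294 counts (9.24 and 6.85 FPKM) against 1050 and 1168 (15.9 and 18.7 FPKM), a log2 fold change of −1.64 ± 0.171 (adjusted p = 1.84e-05, edgeR). Esrrb had 11.3 and 9.30 FPKM against 12.2 and 10.2. These groups overlapped in FPKM, and the fold change from counts was under 2 (log2 −0.54 ± 0.138, adjusted p = 0.00936, edgeR) and −0.18 (adjusted p = 0.324) with library totals. Rxra was lower, at 3.04 and 3.86 FPKM against 5.51 and 4.89 (log2 −1.13 ± 0.169, adjusted p = 0.00028, edgeR). It was under 2-fold when scaled to library totals (−0.77) and not past it in a fit of all 16 libraries (−1). Rara was higher in both TSA-treated libraries, at 13.2 and 9.58 FPKM against 4.79 and 5.16, by less than 2-fold from counts (log2 0.81 ± 0.172, adjusted p = 0.00306, edgeR). Rara passed that threshold when scaled to library totals (1.16) or without TSA replicate 2 (1.01). Rarb and Rxrb were not called, with 50 and 27 counts against 26 and 19, and 28 and 20 counts against 52 and 57. The 3 genes called as lower and 0 as higher stand beside 13.9% and 13.8% of all genes tested. The 9 markers of the 2-cell stage were not lower with TSA but summed to 883 and 811 FPKM against 236 and 286.

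The effects of A-485 and TSA, each against its own DMSO libraries, were compared in 1 fit. They differed for Esrrb (log2 −3.18 ± 0.293, adjusted p = 3.80e-07, edgeR) and Rarg (−1.58 ± 0.284, adjusted p = 0.000593, edgeR), both deeper with A-485, and kept in all 15 alternatives tried. For Nr5a2 the difference was −0.29 ± 0.193 (adjusted p = 0.364, edgeR), which the test did not call. Its adjusted p was under 0.05 only with the mitochondrial scaling (−0.79, adjusted p = 0.0231). Of all genes tested, 17.3% differed between the inhibitors. The 2 experiments differed in start, end and agent of treatment, so a difference between inhibitors and one between schedules cannot be told apart. Their 2 sets of DMSO libraries gave no call among the 7 genes by edgeR or DESeq2, although 3 of 7 (Esrrb, Rara and Nr5a2) had an unadjusted p under 0.05, and 1.32% of all genes were called.

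The other genes of the pathway were taken from lists written with earlier results of these data known. Among 42 other nuclear receptor genes, 1 of 33 tested was called as lower at early 2-cell with A-485, beside 7.90% of all genes. This was Nr2c2, an orphan receptor, with a mean of 2.16 FPKM against 4.86 in DMSO (log2 −1.31 ± 0.254, adjusted p = 0.00405, edgeR). At late 2-cell 3 of 34 were lower and 6 higher, where 16.8% and 10.5% of all genes were, with a median log2 fold change of 0.76 beside 0.28 over all genes. Nr2c2 was again lower (40.6 to 6.06 FPKM, log2 −2.92 ± 0.159), while Nr4a2 and Nr4a3, orphan receptors that many cells induce early after a stimulus, rose from 0.455 to 19.2 and from 0.06 to 1.86 FPKM. Nr2f1 was listed at 0 in both DMSO libraries and at a mean of 2.98 FPKM with A-485. With TSA 2 of 38 were lower and 8 higher, where 13.9% and 13.8% of all genes were, the largest being Nr3c2 (the mineralocorticoid receptor), Vdr (the vitamin D receptor) and Nr4a3, all at or below 0.135 FPKM in DMSO and at 2.66 to 3.50 FPKM with TSA. The median of the list was 0.73 beside 0.13 over all genes.

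Genes that make, carry or break down retinoic acid, the ligand of the retinoic acid receptors, were called only upward with either inhibitor at late 2-cell, where 10.5% of all genes were called as higher with A-485 and 13.8% with TSA. Over those tested the median was 1.52 and 1.56 (log2 fold change), beside 0.28 and 0.13 over all genes. From early to late 2-cell in DMSO, 7 of 13 tested were called as lower, beside 8.92% of all genes. A level above DMSO at late 2-cell therefore need not mean a rise since early 2-cell. Within A-485-treated embryos, 4 of 15 tested were called as higher over that step and 4 as lower, beside 12.8% and 7.15% of all genes. Against DMSO at late 2-cell, 4 of 17 tested were called as higher with A-485. Among them were Cyp26b1 and Cyp26a1, which break down retinoic acid (0.01 to 1.08 and 0.53 to 8.56 FPKM), and Crabp1, which binds it in the cytoplasm (0.39 to 4.41 FPKM). At early 2-cell with A-485 the means were lower than these late 2-cell values, at 0.17 (Cyp26b1), 2.80 (Cyp26a1) and 0.38 FPKM (Crabp1). With TSA 8 of 15 were called as higher, among them Aldh1a1, which makes retinoic acid (0.12 to 8.46 FPKM), and Cyp26b1 (0.055 to 2.83 FPKM). Of the targets of the retinoic acid receptors, 3 of 8 were called as higher with A-485 (Stra8 and Cyp26a1 among them) and 6 of 9 with TSA, beside the same shares of all genes. Stra8, a gene of meiotic entry, had a mean of 0.465 FPKM in DMSO and 3.20 with A-485, and 0.315 in DMSO and 18 with TSA. At early 2-cell with A-485, 0 of 13 supply genes were called by edgeR, beside 7.90% of all genes called as lower and 0.402% as higher. Cyp26a1 and Crabp2 belong to both lists.

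Of 15 coregulator genes, 3 were lower and 1 higher at late 2-cell with A-485, and 2 were lower and 1 higher with TSA, counts near the shares of all genes called (16.8% lower and 10.5% higher with A-485, 13.9% and 13.8% with TSA). Ep300, which encodes p300, was lower with both than in DMSO. Its mean was 42.6 FPKM with A-485 against 120 (log2 −1.92 ± 0.0925, adjusted p = 2.19e-08, edgeR). With TSA it was 39.7 FPKM against 139 (−2.17 ± 0.0589, adjusted p = 2.81e-09, edgeR). At early 2-cell Ep300 had 46.5 FPKM in DMSO and 31.8 with A-485, so its level rose in DMSO and was not lower at late than at early 2-cell with A-485. Med1, a Mediator subunit that nuclear receptors bind, had 51.1 FPKM with TSA against 85.6 in DMSO, and 57.5 in DMSO at early 2-cell. Hdac3, the deacetylase of the corepressor complex, was higher with TSA, at 4.70 FPKM against 0.51 in DMSO. Of 12 steroid and bile acid genes known as NR5A targets in adult tissues, 0 of 6 were called by edgeR with A-485 at late 2-cell. With TSA 1 of 7 was called, Scarb1, as higher (3.67 to 19.0 FPKM). Scarb1 was the only 1 of the 12 with a mean of at least 1 FPKM in any late 2-cell group, which a call needs. The others could not be called at these levels, so the counts do not tell whether they changed.

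The genes whose pattern over the 8 group means was most like that of each member were found among 14145 protein-coding genes by Pearson r of log2(FPKM + 0.1), as a description with no test. For Nr5a2 these were Ccnl2, Ube2c and Polrmt (r of 0.992, 0.99 and 0.99), for Rarg Tmc8, Arg1 and Tbc1d12 (0.997, 0.997 and 0.996), and for Esrrb Rpl7a, Map4k1 and Atg2a (0.99, 0.99 and 0.989). As many as 445 genes had r over 0.95 with Rarg, 87 with Nr5a2 and 42 with Esrrb, against 3 with Rara and 1 with Rxra. Between members, r was 0.752 for Nr5a2 and Esrrb and −0.861 for Nr5a2 and Rara.

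Near the 7 genes the promoter and distal peaks of DMSO-treated early 2-cell embryos were absent from the late 1-cell list and from the A-485 list. At late 1-cell neither list had a promoter peak, meaning one within 1 kb of a start site, at any of them. The one distal peak near them, over 2.5 kb from every start site and within 50 kb of one of theirs, was in DMSO near Rxra and had no counterpart with A-485. At early 2-cell the DMSO list held 6 promoter peaks and 30 distal peaks near the 7 genes. None of the 36 overlapped a late 1-cell DMSO peak by even 1 bp, and none was in the A-485 list. The late 1-cell DMSO list was shorter, with 10214 peaks against 27693 at early 2-cell. The share of all early 2-cell peaks without such an overlap is not given here. Whether new opening was more frequent near these genes than elsewhere can therefore not be read from the 36. Peaks near these genes that lay at or close to a start site of another gene belong to neither class, and among them those at chr11:98907581-98908174 near Rara and chr15:102296054-102296441 near Rarg were in the A-485 list and in the late 1-cell DMSO list. Over all early 2-cell DMSO peaks, 94.5% of distal peaks were missing from the A-485 list, so the 30 of 30 near these genes are close to that background. Of promoter peaks, 38.6% were missing over all genes, beside 6 of 6 here (95% Wilson interval 61.0% to 100%). That interval takes the 6 as independent, but 2 of them were at Rxra. The weaker of these (chr2:27676654-27677102) had a fold enrichment of only 1.77 and a −log10 q of 0.452. Among peaks with a −log10 q of at least 5, 5 of 5 promoter peaks were missing here, beside 38.5% over all genes. At late 1-cell 30.7% of all promoter peaks and 76.9% of all distal peaks of the DMSO list were missing from the A-485 list. Each list is 1 call over both replicates, so these differences have no replicate check, and the A-485 list was shorter, with 13712 peaks against 27693. When only as many of the strongest peaks by −log10 q were taken from the DMSO list as the A-485 list holds, 14 distal and 3 promoter peaks were left near the 7 genes, and none of these was in the A-485 list.

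Nr5a2 (chr1:136842571-136960448 on the minus strand of GRCm38) had 1 promoter peak at an internal start site, with a fold enrichment of 4.33 over background, and 5 distal peaks. One of these lay in an intron and 4 lay 7.3 to 24.4 kb upstream, with fold enrichments from 6.71 to 9.13. Esrrb (chr12:86361117-86521628, plus strand) had no promoter peak in DMSO and 8 distal peaks, 5 of them in introns, with fold enrichments from 6.90 to 10.5. Rarg (chr15:102234938-102257517, minus strand) had 1 promoter peak and 8 distal peaks, from 4.05 to 7.80. Rxra (chr2:27676440-27762957, plus strand) had 2 promoter and 4 distal peaks, among them the strongest promoter or distal peak near any of the genes (12.5, 7.1 kb upstream). Rara (chr11:98927818-98974942, plus strand) had 1 and 3, Rxrb (chr17:34031812-34038399, plus strand) 1 and 1, and Rarb (chr14:16430839-16819156, minus strand) 1 distal peak in an intron. Rarg and Esrrb, both called as lower at early 2-cell, had 8 distal peaks each, and Rxra, which was not called there, had 4. All of these were missing from the A-485 list, as were 94.5% of all distal peaks. The counts were not scaled to the span of the gene, and a link between missing peaks and RNA level was not tested. Several of the distal peaks lay nearer to a start site of another gene, such as Espl1 or Mfsd5 beside Rarg.

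With A-485 2 of the genes had promoter peaks that DMSO lacked. At Rarg the DMSO peak (chr15:102253354-102253880) lay in an intron near one start site, and the A-485 peak (chr15:102246381-102247169, fold enrichment 7.30) covered another start site 7 kb further along the gene. At Esrrb the A-485 peak (chr12:86469951-86470439, fold enrichment 7.37) covered an internal start site, and 2 further A-485 peaks lay 18.6 and 24.7 kb from the nearest start site.

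**Figure D3:**
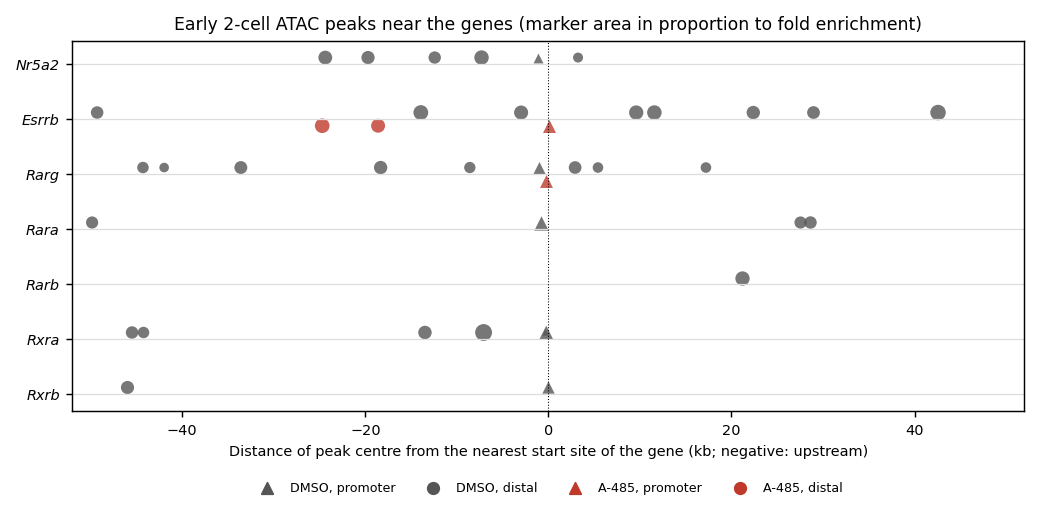
Early 2-cell ATAC peaks near each gene by the distance of the peak centre from the nearest start site of that gene (horizontal axis, kb, negative upstream); grey stands for the DMSO list and red for the A-485 list, triangles for promoter and circles for distal peaks, with the marker area in proportion to fold enrichment. The 36 grey markers have no red marker at the same place, and the 4 red markers belong to Esrrb and Rarg.

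The letters that NR5A2 and ESRRB are known to bind, the extended half-site TCAAGGNCA on either strand, were searched in the 300 bp at the centre of each early 2-cell peak. Near the 7 genes, 6 of the 30 distal windows and 0 of the 6 promoter windows held it, and 3 of the 30 held the plain half-site AGGTCA. The distal matches are printed with 30 bases on each side, 5′ to 3′ on the strand of the match, from the GRCm38 reference genome, with the match in capitals, because they show what kind of sequence carries it.
Nr5a2, chr1:136967743-136967811, plus strand: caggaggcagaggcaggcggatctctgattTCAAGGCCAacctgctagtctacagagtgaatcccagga
Rxra, chr2:27669468-27669536, plus strand: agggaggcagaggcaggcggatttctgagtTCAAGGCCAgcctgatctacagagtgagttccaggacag
Rarg, chr15:102291049-102291117, plus strand: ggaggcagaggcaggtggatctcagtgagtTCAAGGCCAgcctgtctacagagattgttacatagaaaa
Rarg, chr15:102301778-102301846, plus strand: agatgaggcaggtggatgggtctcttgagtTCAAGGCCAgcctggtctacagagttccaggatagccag
Rara, chr11:98987835-98987903, minus strand: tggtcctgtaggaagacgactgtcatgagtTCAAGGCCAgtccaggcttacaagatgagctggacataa
Esrrb, chr12:86479797-86479865, plus strand: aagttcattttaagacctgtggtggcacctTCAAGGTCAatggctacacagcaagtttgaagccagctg
The first 5 read TCAAGGCCA and lie in bases that the reference genome marks as repeats (soft-masked). The flanks of the Nr5a2 and Rxra sites were alike at 33 of 60 positions without gaps, and those of Rxra and the second Rarg site at 31. The site in an intron of Esrrb, in a peak with a fold enrichment of 8.94, straddles the end of that peak. It is the only one of the 6 outside soft-masked bases and the only one that reads TCAAGGTCA, which contains the plain half-site.

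Across the genome the motif was more frequent in missing than in shared peaks, a contrast that could not be made near the 7 genes, where no promoter or distal peak was shared. Of 15793 distal DMSO peaks that were missing from the A-485 list, 17.1% had the extended half-site (95% Wilson interval 16.5% to 17.7%), against 6.59% (5.16% to 8.37%) of the 926 that were in both lists and 2.36% (1.88% to 2.97%) of the 3047 found only with A-485. For the motif with its letters in reverse order, which has the same base composition, the first share was 1.12%. The windows differed in GC content (47.7%, 52.7% and 52.4%) and in the share of soft-masked bases (52.8%, 26.0% and 14.2%). Of the matches in the missing peaks 90.6% lay in soft-masked bases. Counting only matches outside them, a choice made after seeing the data, left 1.67% of the missing peaks (1.48% to 1.88%), 1.62% of the shared peaks (0.984% to 2.66%) and 1.44% of the A-485 peaks (1.08% to 1.93%), intervals that overlap. At promoters 12.6% of the 3095 missing peaks had the motif and 1.05% of the 4933 shared ones, and 1.10% and 0.689% outside soft-masked bases. The plain half-site was in 18.9% of missing and 16.2% of shared distal peaks. Whether a receptor was bound at any of these sites was not measured, and the part of repeats in the difference was not tested.

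**Figure D4:**
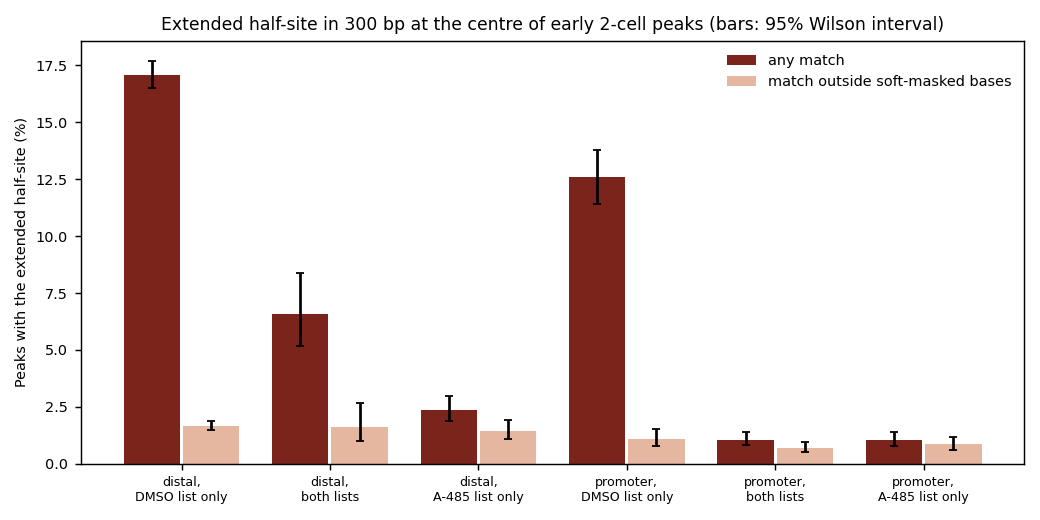
Share of early 2-cell peaks whose central 300 bp hold the extended half-site (vertical axis, percent, starting at 0), for distal and promoter peaks found in the DMSO list only, in both lists or in the A-485 list only, with 95% Wilson intervals; dark bars count any match, light bars only matches outside soft-masked bases. Dark bars reach 17.1% for distal and 12.6% for promoter peaks in the DMSO list only, while the light bars all lie between 0.689% and 1.67%.

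The retinoic acid receptors have a different element, DR5, a direct repeat spaced by 5 bases, which was added after seeing the data. Each repeat was searched more loosely than AGGTCA, with A or G allowed in place of its leading A and G or T in place of the G before TCA. It was in 0.12% of the missing distal peaks (19 of 15793) and in 0 of the 36 windows near the 7 genes. In the RefSeq promoters, 250 bases before to 50 after a start, it was in 0.0974% of 32851, and among the 7 genes in that of Rarb. The Rarb bases before the start (chr14:16575427-16575726 with the 50 after it, minus strand of GRCm38.p6) are shown with DR5 in capitals, because no peak covered them in any of the 4 lists and the gene had at most 2.40 FPKM in any of the 16 libraries.
Rarb: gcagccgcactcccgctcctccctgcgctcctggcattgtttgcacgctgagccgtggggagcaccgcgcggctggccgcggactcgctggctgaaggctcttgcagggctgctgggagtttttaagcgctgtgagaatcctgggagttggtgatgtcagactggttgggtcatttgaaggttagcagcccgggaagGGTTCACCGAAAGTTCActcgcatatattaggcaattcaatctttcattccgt
The extended half-site was in 1.62% and the plain half-site in 16.3% of all RefSeq promoters, and the promoters of Nr5a2, Rara, Rarg and Rxra held 1 or 2 plain half-sites at one of their starts. That start of Rara (chr11:98964622-98964921) also held the extended half-site, the one such match among the 15 promoters of the 7 genes, and no early 2-cell peak covered it.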

How the data were processed

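The authors removed adaptors with Trimmomatic 0.39, mapped the total RNA-seq reads to GRCm38 with STAR 2.7.8a and deposited for each library and gene the FPKM, the effective length and the RSEM 1.3.1 expected count, the last without normalization. The setting for strand was not given in the sources used here, and Rarb overlaps Top2b on the other strand. The ATAC-seq peaks come from the ENCODE pipeline, as those found in both replicates, and the authors deposited a fold enrichment (a ratio), a −log10 q and a score for each. The processing notes name GRCm38, and all 58713 peaks lay within its chromosomes.

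Expected counts were rounded and tested with edgeR 4.0.16 (R 4.3.3; quasi-likelihood F test, TMM, at least 10 counts summed over the fit, Benjamini-Hochberg adjustment over all genes tested), with 2 libraries per group. Nothing says that replicates came from separate fertilizations, so p-values cover the spread between these libraries. The 2 libraries of a group differed by more than counting error (chi-square per degree of freedom 9.44 to 19.6). On simulated counts the test recovered 183 of 200 changed genes for early 2-cell A-485 (8.5% of calls false, 19709 genes), 167 for late 2-cell A-485 (7.73%, 21652 genes) and 150 for the interaction of late and early 2-cell (17.6%, 24236 genes). Peak lines of 1 position were joined, and intervals cover counting error only. Overlaps were checked on made-up peaks.

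The members and lists were chosen with earlier results of these data known. Named are all members, at most 3 called genes per list and comparison by size of change, and the 3 genes most like each member in pattern. Nr2c2, named at early 2-cell, was followed to late 2-cell, and Stra8, Nr4a2 and Nr4a3 are given with levels from the same rule. Alternatives were DESeq2 1.42.0, its size factors, library totals, scaling to mitochondrially encoded genes, no count filter, no FPKM cutoff, all 16 libraries in one fit, a replicate block, leaving out each library, and for peaks other overlaps, thresholds and windows. H3K27ac samples were not used here, and some genes of the lists are not reported here by name.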

Additional observations from a re-analysis of the deposited data

Results flagged for a closer look

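For 3 of the 7 genes, an inhibitor's effect differed between stages or between inhibitors by a test of the difference itself (interaction term of edgeR). The A-485 effect was deeper at early 2-cell than in zygotes for Rarg (log2 −3.11) and Esrrb (−1.30). It was deeper at late than at early 2-cell for Nr5a2 (−1.91) and Esrrb (−2.11). At late 2-cell it was deeper than the TSA effect for Rarg (−1.58) and Esrrb (−3.18). The first 2 rest on a stage at which Rarg had 23 to 49 counts per library, and the Esrrb value there was lost in 5 of the 15 alternatives.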

How the results depend on the processing

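Of 1157 values recomputed under an alternative, 1052 were classed as unchanged. For values of single genes this meant the same direction and side of the threshold, kept by 564 values with all libraries and 347 with 1 library left out. Counts of members called and values for peaks were classed only as unchanged or moved, and 22 moved. Nr5a2, Rarg and Esrrb were called as lower with A-485 at late 2-cell in all 12 alternatives each. With 2 libraries per group, low counts of Rarb and Rxrb and 1 peak list per group limit what could be seen. The number of members called fell from 2 to 1 at early 2-cell with A-485 when early 2-cell DMSO replicate 2 was left out (range 1 to 2 over single libraries left out), and for the interaction of early 2-cell and zygote it lay between 1 and 2. From early to late 2-cell in A-485-treated embryos it was 1 in place of 2 with DESeq2, with its size factors and with no count filter, and 0 to 2 over libraries left out. Scaling to mitochondrially encoded genes gave 5 in place of 2 from zygote to early 2-cell, and 4 in place of 2 for late against early 2-cell and for A-485 against TSA. The cause was not tested. In all genes, calls with A-485 at late 2-cell were 3824 lower and 2406 higher, 3435 and 2939 with library totals, and 5558 and 1517 with mitochondrial scaling. With TSA they were 3247 and 3237, and 2384 and 4108 with library totals. From zygote to early 2-cell they were 3002 and 2257, and 7938 and 1283 with mitochondrial scaling. From early to late 2-cell with A-485 they were 1634 and 2915, 966 and 3527 with library totals, and 3982 and 1920 with mitochondrial scaling.

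The labels number the replicates, but nothing says that the numbers pair the libraries. Deviations of same-numbered libraries correlated by −0.0397 to 0.0974 over genes. With a replicate block, 1 in place of 2 members was called from early to late 2-cell in A-485-treated embryos (Rarg, log2 1.28, adjusted p = 0.0548, edgeR), and no other member call changed.

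The extended half-site was in 12.4% of missing and 4.43% of shared distal peaks in 200 bp windows, in 19.9% of missing peaks in windows centred on the summit, in 1.12% and 1.51% with its letters reversed and, in an alternative chosen after seeing the data, in 1.67% and 1.62% outside soft-masked bases.

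A sign turned in 46 values, all of uncalled members. With mitochondrial scaling these were Nr5a2 (0.04) and Esrrb (0.05) in zygotes with A-485, Rxra at early 2-cell (−0.01), Rara at late 2-cell (−0.29), Rara from zygote to early 2-cell (−0.98) and from early to late 2-cell with A-485 (−0.51), Rarg (0.07) and Rxra (0.08) between the DMSO sets, Rara (−0.05) and Rxrb (−0.12) for early 2-cell against zygote, Rara (−0.41) for late against early 2-cell, and Rarb (−0.28) and Rxra (−0.24) for A-485 against TSA. With DESeq2 and with its size factors, Rara from early to late 2-cell with A-485 was 0 and −0.01, and Rxrb for A-485 against TSA was 0.02 in both. With library totals, Rxra and Rxrb from early to late 2-cell with A-485 were 0 and 0.14. Over single libraries left out, the sign turned in these ranges. In zygotes with A-485 they were −0.18 to 0.08 (Nr5a2), −0.03 to 0.16 (Rara), −0.19 to 0.38 (Rarb) and −0.21 to 0.07 (Esrrb), and at early 2-cell −0.01 to 0.17 (Rxra). From early to late 2-cell they were −0.24 to 0.14 (Rara in DMSO), −0.22 to 0.25 (Rara with A-485) and −0.48 to 0.14 (Rxrb with A-485). Between the DMSO sets they were −0.16 to 0.11 (Rarg), −0.08 to 0.02 (Rxra) and −1 to 0.28 (Rxrb). For early 2-cell against zygote the range was −0.30 to 0.49 (Rxrb), for late against early 2-cell −0.15 to 0.40 (Rara), and for A-485 against TSA −0.08 to 0.81 (Rarb) and −0.62 to 0.64 (Rxrb).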

Other observations

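The effective length of Esrrb, which RSEM averages over its transcripts, was 1539 to 1999 bases in the 4 zygote libraries and 3570 to 3977 bases in all 8 late 2-cell libraries, A-485 and TSA included. At early 2-cell it was 1416 to 4006 bases with 62 to 208 counts per library. For Nr5a2 it was 1988 to 2511 bases over all 16 libraries, with no such shift. Levels of single transcripts were not analysed here.

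The order of the 7 genes within a group put Nr5a2 first in all 8 groups. Rxrb in A-485-treated late 2-cell embryos had 1.55 and 1.77 FPKM, its highest, from 10 and 17 counts, its lowest pair at that stage. Its effective length there was 490 and 642 bases, against 1144 and 2181 in the DMSO libraries, and its log2 change was −1.13 from counts and 0.64 from FPKM.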
